A study of Saccharomyces cerevisiae with 14 samples.

Results

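This account covers the 7 yeast genes BNA1, BNA2, BNA4, BNA5, BNA6, TNA1 and NPT1, which make NAD or take up its precursor nicotinic acid. They were taken as all probe sets of the value table annotated to these symbols. Each gene had 1 probe set (BNA1 is YJR025C, BNA2 YJR078W, BNA4 YBL098W, BNA5 YLR231C, BNA6 YFR047C, TNA1 YGR260W and NPT1 YOR209C), so the genes are 7 of 9275 yeast probe sets on the array. The data are 14 Affymetrix expression arrays of total RNA from Saccharomyces cerevisiae in mid-log growth. H3del, with 4 arrays, is a strain whose histone H3 had lost residues 1 to 28, the amino-terminal tail. H3WT, also with 4 arrays, is its wild type counterpart. H4del, with 3 arrays, had lost residues 2 to 26 of histone H4, and H4WT, with 3, is the wild type counterpart of that strain. The strains were congenic and carried the histone on a plasmid, which was marked with LEU2 for the H3 strains, which grew without leucine and uracil, and with TRP1 for the H4 strains, which grew without tryptophan and uracil. Whether the arrays within a group stem from independent cultures is not stated, and the p-values thus reflect array-to-array spread that may be technical.

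Yeast makes NAD along a de novo route from tryptophan and along a salvage route from nicotinic acid. Bna2 opens the de novo route by oxidising tryptophan, Bna4 hydroxylates kynurenine, Bna5 cleaves the product to 3-hydroxyanthranilate, Bna1 opens its ring, and Bna6 joins quinolinate to a ribose phosphate to give nicotinic acid mononucleotide. Tna1 is the nicotinic acid permease of the plasma membrane, and Npt1 turns nicotinic acid into the same mononucleotide. Several of these genes are known targets of repression by Hst1, an NAD-dependent histone deacetylase that acts with Sum1 and Rfm1. The lysines it deacetylates lie in the histone tails, which are what the mutants here lack.

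The values are MAS5 signals, which summarise a probe set on a linear scale, and the arrays had been scaled to nearly the same mean. The arrays were hybridized on 5 days. H3del and H3WT shared days 1, 4 and 5, and H4del and H4WT shared days 2 and 4, while H4WT replicate 2 was alone on day 3. The 3 prime over 5 prime ratio of actin, a sign of RNA quality, lay between 1.54 and 2.89 in H3del against 1.56 to 2.15 in H3WT, and between 1.54 and 1.99 in H4del against 1.48 to 1.82 in H4WT. The same ratio of the TATA-binding protein gene was 3.84 to 4.94 in H3del against 1.3 to 4.2 in H3WT, and 3.21 to 4.68 in H4del against 2.68 to 3.2 in H4WT. The part of RNA quality in the results was not tested. Of 8 genes of the mitochondrial genome 2 were bright enough to be tested. In H4del OLI1 had a signal of 1.1 to 4.0 against 1173.7 to 9736.8 in H4WT, and COX1 4.1 to 4.8 against 1181.2 to 4288.6, each on its brightest probe set, while their other probe sets were too dim to be tested. For every H4del value below, the missing H4 tail and the missing mitochondrial transcripts cannot be told apart. A tested gene is one of the 6492 probe sets whose mean log2 signal passed the 30th percentile, and all 7 genes did, with mean levels between the 63.3 and 92.7 percentile of all probe sets. Changes were called at an adjusted p of 0.05 in limma over all tested probe sets.

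Loss of the H3 tail was accompanied by a higher signal of BNA4, BNA2 and TNA1 and a lower signal of BNA1. Thus 4 of the 7 genes changed, where 7.67% of all tested probe sets did. Of the 7, 3 rose (5.21% of all tested probe sets) and 1 fell (2.46%). The median log2 difference of the 7 was 0.07, against 0.02 over all tested probe sets. The arrays of H3del and H3WT did not overlap for BNA2, BNA4, BNA6 and TNA1, or 4 of 7, and for 14.8% of all tested probe sets. The number of arrays limits the precision of each value.

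BNA4, the kynurenine hydroxylase, had signals of 4220.0, 4430.3, 3381.5 and 4388.3 in H3del replicates 1 to 4, against 1378.1, 1383.6, 1131.7 and 1213.1 in H3WT. Every H3del array was thus far above every H3WT array. The gene rose 3.18-fold, a log2 difference of 1.67 ± 0.18 (SE), with an adjusted p of 1.8e-05 in limma. It ranked 70 by size and 27 by p among the 6492 tested. Leaving out any 1 array kept the call, with adjusted p between 2.67e-05 and 0.000169.

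BNA2, which takes the first step from tryptophan, had 1225.6, 1217.6, 1228.5 and 1227.6 in H3del, against 712.7, 691.4, 678.5 and 780.9 in H3WT. The H3del arrays lay within a few units of each other, with a mean of 1225 ± 4.97 (SD, n = 4), against 716 ± 45.6 (SD, n = 4) in H3WT. The rise was 1.7-fold, or 0.76 ± 0.20 on the log2 scale, with an adjusted p of 0.0305 in limma. This call stood only without H3WT replicate 4 (0.0424). Without any one of the other 7 arrays the adjusted p lay between 0.0553 and 0.0795.

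The permease gene TNA1 had 5033.5, 5243.6, 6613.6 and 6770.3 in H3del, against 3242.8, 3454.9, 4302.0 and 4549.4 in H3WT. In both groups the arrays of days 4 and 5 were brighter than those of day 1, and the groups did not overlap. TNA1 rose 1.52-fold (0.61 ± 0.18 log2, adjusted p = 0.0481 in limma). Of the single arrays, only leaving out H3WT replicate 4 kept this call (0.0411), and without any other array it lay between 0.0565 and 0.148. It was also lost under 4 of 11 other settings, namely only the groups compared (0.0501), no trend (0.0609), the filter at the 50th percentile (0.0636) and arrays centred on their median (0.0861).

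BNA1, the ring-opening dioxygenase, had 4318.1, 3583.5, 2571.4 and 2562.0 in H3del, against 5380.9, 6104.3, 4545.8 and 4120.8 in H3WT. The highest H3del array overlapped the lowest H3WT array. BNA1 fell to 0.639 of its H3WT level (-0.65 ± 0.19 log2, adjusted p = 0.0462 in limma). The call stood without H3del replicate 1 (0.0199) or H3WT replicate 4 (0.0356) and was lost without any of the other 6 arrays (0.061 to 0.154). It was also lost under 4 of 11 other settings, namely quantile normalization (0.0515), no trend (0.0583), the filter at the 50th percentile (0.0602) and only the groups compared (0.0861).

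The other 3 genes did not pass the test in H3del. BNA6 averaged 6758 ± 431 in H3del and 7808 ± 233 in H3WT (SD, n = 4 each), and its arrays did not overlap, but the log2 difference was only -0.21 ± 0.16 (95% interval -0.55 to 0.14, adjusted p = 0.536 in limma). For BNA5, the kynureninase, the means were 1847 ± 465 in H3del and 1741 ± 267 in H3WT, with an interval of -0.38 to 0.51. NPT1, the salvage enzyme, averaged 3911 ± 909 in H3del and 4885 ± 923 in H3WT, with an interval of -0.75 to 0.09.

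**Figure D1:**
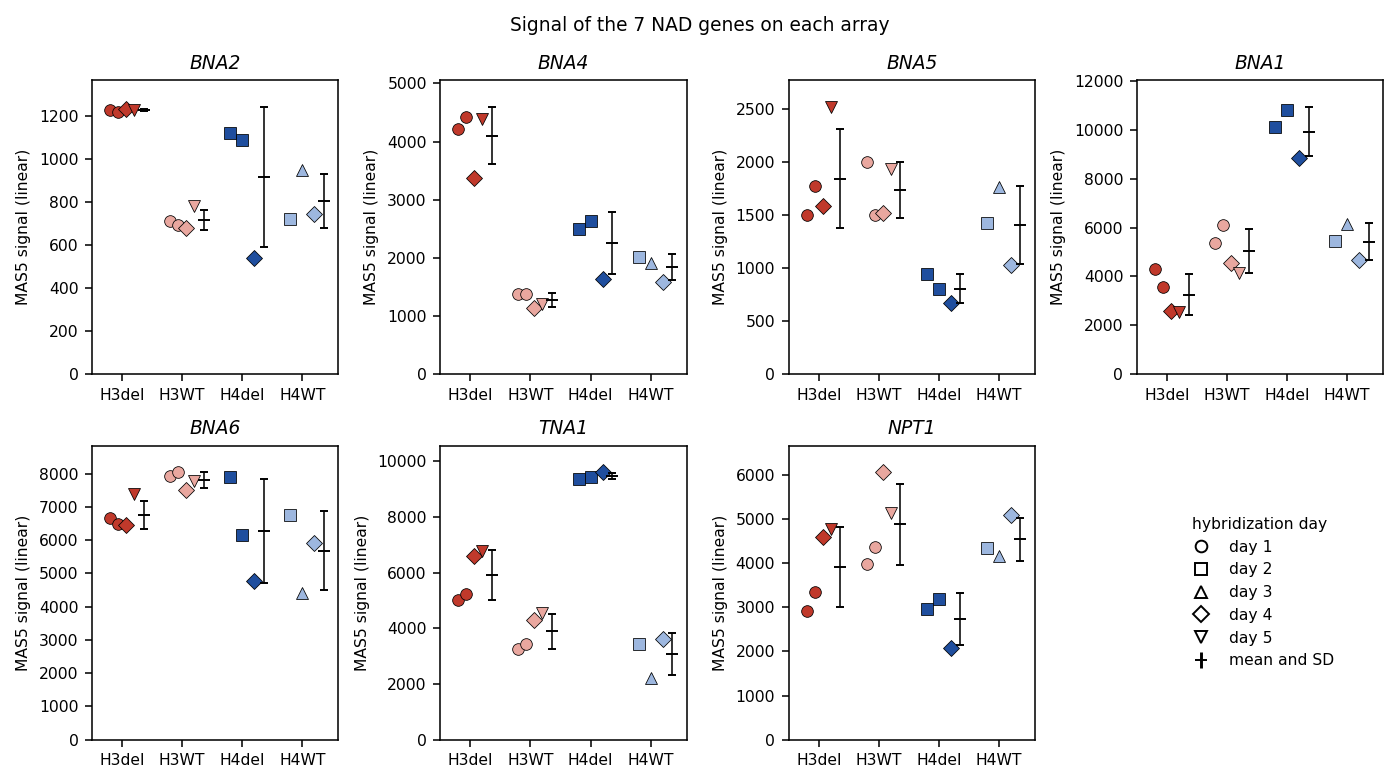
Signal of each gene on each array (linear MAS5 signal, one panel per gene), grouped as H3del, H3WT, H4del and H4WT, with the hybridization day as the symbol and the mean and SD (n = 4, 4, 3 and 3) beside the points. BNA4 stands highest in H3del (3381.5 to 4430.3) and TNA1 and BNA1 stand highest in H4del (9379.9 to 9608.2 and 8836.8 to 10814.5).

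Loss of the H4 tail was accompanied by a higher signal of TNA1 and BNA1 and a lower signal of BNA5 and NPT1. Again 4 of 7 changed, where 17.5% of all tested probe sets did. Of the 7, 2 rose (7.79% of all tested probe sets) and 2 fell (9.67%). The median of the 7 was 0.13, against -0.08 over all tested probe sets. These same 4 genes had arrays that did not overlap between H4del and H4WT, which was so for 33.3% of all tested probe sets.

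TNA1 had 9379.9, 9430.5 and 9608.2 in H4del, against 3437.0, 2220.4 and 3613.6 in H4WT. The lowest H4del array was far above the highest H4WT array. TNA1 rose 3.12-fold (1.64 ± 0.20 log2, adjusted p = 0.000124 in limma), which ranked 104 by size and 34 by p. Without any 1 array the adjusted p stayed between 0.000196 and 0.000941.

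BNA1 had 10127.0, 10814.5 and 8836.8 in H4del, against 5429.8, 6162.1 and 4665.8 in H4WT. The gene thus rose 1.83-fold (0.88 ± 0.22 log2, adjusted p = 0.0133 in limma), the opposite direction to that in H3del. The call was lost only without H4del replicate 2 (0.0528) among the arrays left out singly.

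BNA5 had 946.5, 801.9 and 674.8 in H4del, against 1428.2, 1772.1 and 1034.0 in H4WT. The kynureninase gene fell to 0.586 of its H4WT level (-0.77 ± 0.24 log2, adjusted p = 0.0401 in limma). The call stood without H4WT replicate 3 (0.0132) and was lost without any of the other 5 arrays (0.0526 to 0.169), under quantile normalization (0.06) and with only the groups compared (0.0902).

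NPT1 had 2970.9, 3178.6 and 2074.5 in H4del, against 4356.2, 4168.0 and 5100.0 in H4WT. It fell to 0.597 of its H4WT level (-0.74 ± 0.23 log2, adjusted p = 0.037 in limma). The call stood without H4del replicate 2 (0.0484) and was lost without any of the other 5 arrays (0.0621 to 0.141), under quantile normalization (0.0935), with arrays centred on their median (0.0545) and with only the groups compared (0.0681).

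Neither BNA4 nor BNA2, the de novo genes that rose in H3del, passed in H4del. BNA4 had 2501.3, 2628.1 and 1640.7 in H4del, against 2023.5, 1906.7 and 1588.2 in H4WT (0.27 ± 0.20 log2, interval -0.16 to 0.70, adjusted p = 0.393 in limma). BNA2 had 1118.4, 1085.2 and 540.3 in H4del, against 719.4, 948.4 and 745.7 in H4WT. Its H4del arrays were split, with both arrays of day 2 above and the array of day 4 below all of H4WT, and the log2 difference was 0.12 ± 0.24 (interval -0.38 to 0.62). Without H4del replicate 3, the array of day 4, it was 0.46 ± 0.19 (adjusted p = 0.124 in limma). BNA6 averaged 6277 ± 1576 in H4del and 5686 ± 1193 in H4WT (SD, n = 3 each), with an interval of -0.26 to 0.53.

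**Figure D2:**
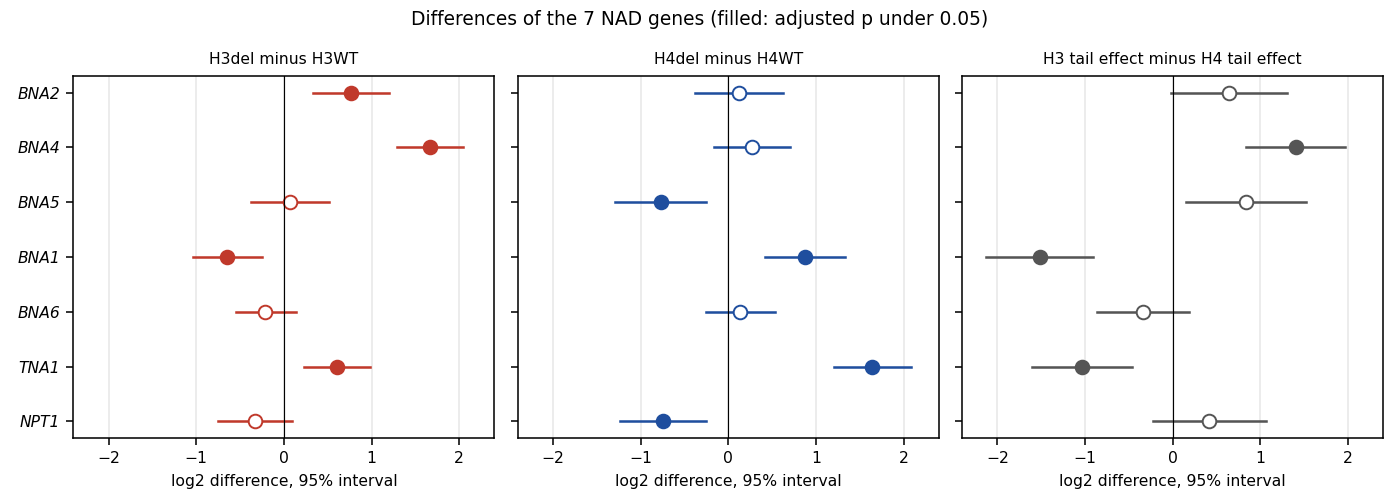
Log2 difference of each gene with its 95% interval for H3del minus H3WT, for H4del minus H4WT and for the difference between these effects. Filled points passed an adjusted p of 0.05, and BNA1 lies on opposite sides of 0 in the first 2 panels (-0.65 and 0.88).

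The 2 tail deletions were then compared directly by the difference of their effects, H3del minus H3WT less H4del minus H4WT. The H3 and H4 strains also differed in the plasmid marker, in the medium (without leucine or without tryptophan) and largely in the day. Mitochondrial transcripts were missing in H4del. Which tail was lost thus cannot be told apart from these in the values of the difference. Of the 7 genes 3 passed this test, where 3.68% of all tested probe sets did. The value was positive for 1 (2.4% of all tested probe sets) and negative for 2 (1.28%). BNA1 had the largest difference of the 7, at -1.52 ± 0.29 on the log2 scale (adjusted p = 0.00979 in limma), from -0.65 in H3del and 0.88 in H4del. BNA4 had 1.40 ± 0.27 (adjusted p = 0.0119), from 1.67 in H3del and 0.27 in H4del. Both calls held without any 1 array (adjusted p up to 0.0336 and 0.0381).

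TNA1 rose in both deletions, and less in H3del, with a difference of -1.04 ± 0.27 (adjusted p = 0.0454 in limma). That call held without H3del replicate 3 (0.042), H3WT replicate 1 (0.0489) or H4WT replicate 3 (0.0239). It was lost without any of the other 11 arrays (0.054 to 0.105), under quantile normalization (0.0986) and without a trend (0.055). For BNA2 the difference was 0.64 ± 0.31 (interval -0.02 to 1.3), so its rise in H3del was not shown to differ from its value in H4del. BNA5 had 0.84 ± 0.32 (adjusted p = 0.154 in limma), and 0.84 ± 0.24 with an adjusted p of 0.038 when the replicate number was a block. BNA5 also passed with the day as a fixed or random block, and the lowest adjusted p of these 3 blocks was 0.0272 in limma. For NPT1 and BNA6 the intervals of the difference were -0.23 to 1.06 and -0.87 to 0.18.

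The replicate block raised the number of calls in every comparison, to 16.1% of tested probe sets in H3del, 32.8% in H4del, 16.3% for the difference and 7.87% between the wild types. Under it the same 4 of the 7 genes were called in H3del and the same 4 in H4del. In H3del its adjusted p in limma was 0.00865 for TNA1, 0.00349 for BNA1 and 0.00876 for BNA2. In H4del it was 0.00847 for BNA5 and 0.00808 for NPT1. With the day as a fixed or random block the same genes were called in each deletion. These day blocks called 1338 and 1304 of the 6492 tested probe sets in H3del, and 1933 and 2124 in H4del.

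Between the wild types 0 of the 7 genes passed, where 3.4% of tested probe sets did (1.23% higher and 2.17% lower in H3WT), and 2 had an unadjusted p under 0.05 in limma. These strains differ in the plasmid marker and the histone it carries, in the medium (without leucine for H3WT, without tryptophan for H4WT) and largely in the day, of which they share day 4. BNA4 averaged 1277 ± 125 (SD, n = 4) in H3WT and 1839 ± 225 (SD, n = 3) in H4WT, without overlap (-0.52 ± 0.19 log2, adjusted p = 0.178 in limma). With the replicate number as a block over all 4 groups it passed (-0.53 ± 0.13, adjusted p = 0.0296). For replicates 1 and 2 this block joined wild type arrays of different days. BNA6 averaged 7808 ± 233 in H3WT and 5686 ± 1193 in H4WT, also without overlap (0.48 ± 0.18, adjusted p = 0.178 in limma). Ranges of the wild types did not overlap for 13.6% of all tested probe sets. For BNA2 the interval was -0.62 to 0.31, and TRP1, the plasmid marker of the H4 strains, had 1947 ± 121 in H3WT and 13494 ± 4291 in H4WT.

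Over the 4 groups the genes did not share an order. BNA4 ran H3del, H4del, H4WT, H3WT from high to low, and only H4del and H4WT overlapped among neighbours in that order. BNA2 had the same order, with H3del set apart from H4del and the lower 3 groups overlapping in turn. TNA1 ran H4del, H3del, H3WT, H4WT, with only the wild types overlapping. BNA1 ran H4del, H4WT, H3WT, H3del, with only H4del set apart, and BNA5 ran H3del, H3WT, H4WT, H4del, with only H4del set apart. BNA6 ran H3WT, H3del, H4del, H4WT, with no overlap between H3WT and H3del next to it. H4del replicate 1 (7911.2) lay within the H3WT range of BNA6 (7497.4 to 8039.9). NPT1 ran H3WT, H4WT, H3del, H4del with overlap at each step.

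Within single hybridization days BNA4 was higher in H3del than in H3WT by 1.63, 1.56 and 1.84 on the log2 scale on days 1, 4 and 5. On day 4 the actin ratio was 1.54 in H3del and 1.56 in H3WT, while the ratio of the TATA-binding protein gene was 3.84 in H3del and 1.3 in H3WT. BNA2 gave 0.78, 0.84 and 0.64 on these days, TNA1 0.62, 0.62 and 0.57, and BNA1 -0.54, -0.82 and -0.68. Each of the 4 genes thus kept its direction on all 3 days, but they had been called on these same arrays. BNA6 (-0.28, -0.21 and -0.07) and NPT1 (-0.41, -0.40 and -0.11), which were not called, also kept theirs. BNA5 did not (-0.09, 0.06 and 0.38).

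Between H4del and H4WT, TNA1 differed by 1.45 on day 2 and 1.41 on day 4, and BNA1 by 0.94 and 0.92. BNA5 gave -0.70 and -0.60 on these days, and NPT1 -0.50 and -1.29. BNA2 changed sign between the days, at 0.60 and -0.45, and so did BNA6, at 0.05 and -0.31. H4WT replicate 2 has no partner on its day and is not in these values.

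**Figure D3:**
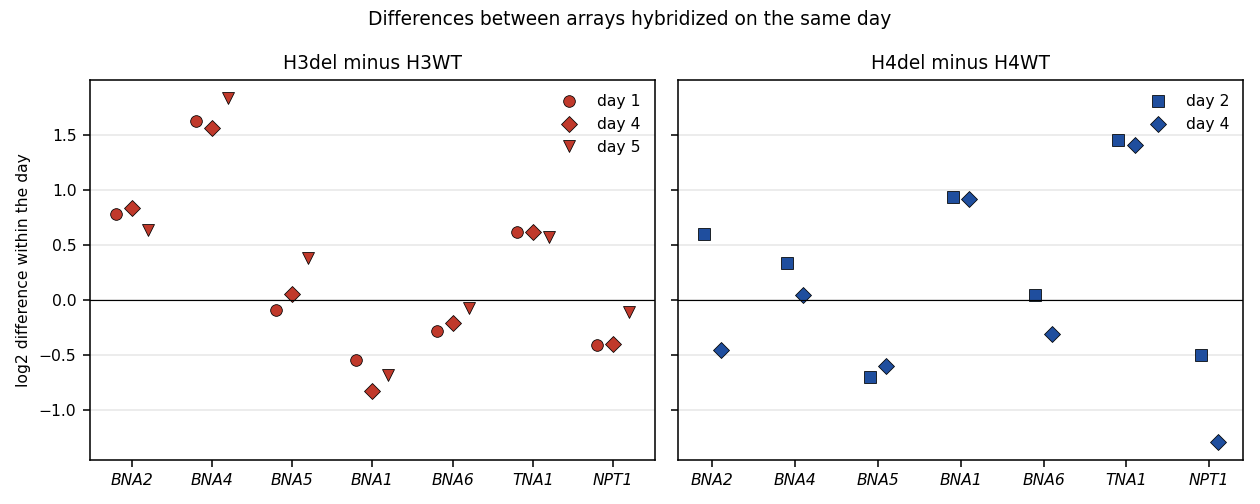
Log2 difference of each gene between arrays hybridized on the same day, for H3del minus H3WT on days 1, 4 and 5 and for H4del minus H4WT on days 2 and 4. BNA4 (1.56 to 1.84) stands apart in H3del and TNA1 (1.41 and 1.45) in H4del, while BNA2 in H4del lies on both sides of 0.

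Of 19 tested other genes of NAD metabolism, which complete both routes, recycle nicotinamide riboside or carry and phosphorylate NAD, 0 passed in H3del in limma, with 1 at an unadjusted p under 0.05. In H4del 3 fell and none rose. They were NRK1, the nicotinamide riboside kinase (-1.06 ± 0.26, adjusted p = 0.0124), ISN1, an inosine monophosphate nucleotidase that also acts on nicotinic acid mononucleotide (-1.03 ± 0.26, 0.0134), and POS5, the mitochondrial NADH kinase (-0.87 ± 0.24, 0.024). Of all tested probe sets 9.67% fell in H4del. The list's median was -0.19 in H3del and -0.19 in H4del.

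BNA7, the formamidase that follows Bna2 in the de novo route, had -0.58 ± 0.29 in H3del and -0.92 ± 0.34 in H4del (adjusted p = 0.293 and 0.0736 in limma). With the replicate number as a block 7 of the 19 passed in H4del, where 32.8% of all tested probe sets did, with BNA7 (-0.92 ± 0.22, adjusted p = 0.00898) and the riboside transporter gene NRT1 (0.66 ± 0.23, adjusted p = 0.0439) among them. NRT1 was the only one of the 7 that was higher.

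Of the 7 genes of NAD-dependent deacetylases and Hst1 partners 0 passed in limma in either deletion, where 7.67% of all tested probe sets did in H3del and 17.5% in H4del. HST1 averaged 4090 ± 1017 in H3del and 3446 ± 1079 in H3WT, and 3208 ± 784 in H4del and 3890 ± 1427 in H4WT. SUM1, the DNA-binding partner, gave -0.13 ± 0.18 in H3del and 0.18 ± 0.21 in H4del. RFM1, which links the pair, gave -0.43 ± 0.18 and -0.39 ± 0.21. Of the other NAD-dependent deacetylase genes SIR2 gave 0.46 ± 0.20 and -0.05 ± 0.23, HST2 0.09 ± 0.26 and -0.08 ± 0.30, HST3 0.21 ± 0.33 and -0.78 ± 0.38, and HST4 -0.02 ± 0.25 and -0.77 ± 0.29. Of these 7 genes 2 in H3del and 1 in H4del had an unadjusted p under 0.05 in limma, and with the replicate number as a block HST4 passed in H4del (-0.77 ± 0.16, adjusted p = 0.00531), where 32.8% of all tested probe sets did.

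Mid-sporulation genes, the best known group under Sum1, Rfm1 and Hst1, had 9 of 14 listed members bright enough to be tested. The filter used the mean over all arrays, so a gene that was dim in its wild type could pass through the deletion. Of those called in H3del, the H3WT means were 35.4 (SPS2), 62.5 (LOH1), 91.3 (SPR1), 92.8 (SPS4), 95.4 (SPS1) and 725 (SGA1). The counts and medians below thus cannot be told apart from the choice made by the filter. In H3del 6 rose and none fell, where 5.21% of tested probe sets rose, and in H4del 3 rose and none fell, where 7.79% did. The median of the 9 was 1.13 in H3del and 0.63 in H4del. With the replicate number as a block all 9 passed in H3del, 8 higher and CDA2 lower, with CDA1 and SSP2 added (adjusted p = 0.0091 and 0.0496 in limma), where 16.1% of all tested probe sets passed. In H4del 4 passed with the block, with SPR1 added (adjusted p = 0.0345). With the filter at the 50th percentile 1 was left called in H3del and 1 in H4del, where a gene removed by that filter counts as not called. In H4del 1 was also left without H4del replicate 1 or without H4WT replicate 2.

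SPS2, a cell wall gene of sporulation, had 261 ± 60.2 in H3del and 35.4 ± 19.2 in H3WT (2.46 ± 0.26 log2, adjusted p = 1.89e-05 in limma). In H4del it had 263 ± 45.5, against 170 ± 12.4 in H4WT (0.57 ± 0.30, adjusted p = 0.21). The wild types differed (-1.91 ± 0.28, adjusted p = 0.0012). SGA1, a glucoamylase of sporulation, rose in both, by 1.88 ± 0.21 in H3del and 1.12 ± 0.24 in H4del, and its dimmer probe set gave 2.11 ± 0.23 and 1.32 ± 0.26. SPS1, a kinase, rose in H3del (1.71 ± 0.21), LOH1 rose in both (1.85 ± 0.26 and 1.06 ± 0.30), and SPS4 rose in both (0.88 ± 0.26 and 1.03 ± 0.29). CDA2, a chitin deacetylase, had a brightest probe set at -0.60 ± 0.19 in H3del (adjusted p = 0.0642) that passed with the replicate block (-0.60 ± 0.15, adjusted p = 0.0161 in limma), and a dimmer one, under the brightness filter, at 2.57 ± 0.21 in a fit without the filter.

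Of 15 tested genes that make, take up or break down tryptophan and the other aromatic amino acids, 1 rose and 1 fell in each deletion. Of all tested probe sets 5.21% rose and 2.46% fell in H3del, and 7.79% rose and 9.67% fell in H4del. In H3del ARO9, an aromatic aminotransferase, rose by 1.23 ± 0.31 (adjusted p = 0.0213 in limma), and TAT2, the high-affinity tryptophan permease, fell (-0.62 ± 0.16, adjusted p = 0.0269). In H4del TAT1, another tryptophan and tyrosine permease, fell (-1.23 ± 0.22, adjusted p = 0.00192), and ARO1 of the shikimate route rose by 0.48 ± 0.16 (adjusted p = 0.0466). TAT1 also differed between the wild types (H3WT minus H4WT -1.12 ± 0.20, adjusted p = 0.00418 in limma). Its mean was 2162 in H4WT, against 895 in H4del, 969 in H3WT and 723 in H3del. ARO10, a decarboxylase of the same breakdown route, passed for the difference of effects (2.01 ± 0.53, adjusted p = 0.0461) but had 1.16 ± 0.35 in H3del (adjusted p = 0.0515) and -0.85 ± 0.40 in H4del (0.16). With the replicate number as a block it passed in both, at 1.16 ± 0.20 in H3del (adjusted p = 0.00207 in limma) and -0.85 ± 0.23 in H4del (0.0153), and 3 of the 15 were called in each deletion. The medians were -0.04 in H3del and 0.04 in H4del.

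**Figure D4:**
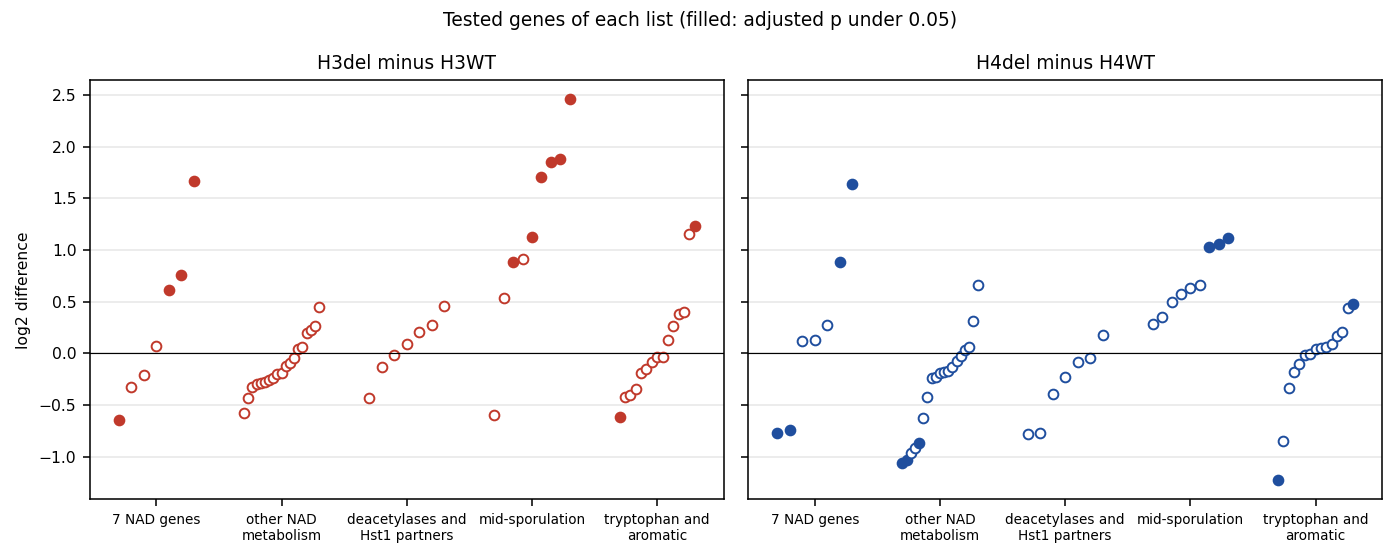
Log2 difference of every tested gene of the 5 lists for H3del minus H3WT and for H4del minus H4WT, ordered within a list, with filled points for an adjusted p under 0.05. The 7 NAD genes spread over both directions in each panel, while the called mid-sporulation genes (6 in H3del and 3 in H4del, without a replicate block) all lie above 0. Mid-sporulation genes that were dim in the wild type could pass the brightness filter through the deletion.

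Profiles were also compared over the 14 arrays by the root mean square difference between centred log2 signals, which is 0 for identical profiles. The tested gene nearest to BNA4 was DAL1, the allantoinase, at 0.19, where BNA4's own spread was 0.67. It was followed by LDS2 at 0.24 and PDR10 at 0.26. DAL1 rose by 1.68 ± 0.19 in H3del and had 0.64 ± 0.21 in H4del (adjusted p = 0.0526 in limma). TNA1 was nearest to YMR045C, CSS2 and YIR043C (0.24, 0.25 and 0.25), of which YMR045C and YIR043C are read by probe sets that may also bind transcripts of similar sequence.

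BNA1 was nearest to YGR109W-B, whose probe set is of the same kind, YAH1 and DIF1 (0.24 to 0.28). BNA2 was nearest to SPR6, STU2 and ERF2 (0.22 to 0.24), BNA5 to MRE11, MTF1 and ENT3 (0.18 each) and NPT1 to UBX2, YGR017W and MOD5 (0.16 to 0.19). Among the 7 genes themselves the nearest pairs were BNA6 with NPT1 (0.38) and BNA2 with BNA4 (0.39), and the farthest were BNA1 with BNA4 and BNA1 with BNA5 (1.06 each). Arrays share groups and days, so these values describe the profiles and carry no test.

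The genes lie apart in the genome. Counted in the RefSeq annotation (assembly R64), BNA6 is 9 genes and BNA4 17 genes from a chromosome end, and the others are 31 or more. Of the 14 nearest neighbours on either side 12 were tested. In H3del 0 of them passed in limma, with 2 at an unadjusted p under 0.05. In H4del 1 passed, with 3 at an unadjusted p under 0.05. MDE1 beside BNA1 passed (-0.98 ± 0.29, adjusted p = 0.0323), against the direction of BNA1. The others were YJR027W, also beside BNA1 and in its direction (0.50 ± 0.23, adjusted p = 0.155), and MIR1 beside BNA2 (-0.42 ± 0.19, adjusted p = 0.154). Of all tested probe sets 7.67% passed in H3del and 17.5% in H4del. The 2 at an unadjusted p under 0.05 in H3del were YJR079W beside BNA2 (0.78 ± 0.32, adjusted p = 0.178, next to 0.76 for BNA2) and EST1 beside BNA5 (0.85 ± 0.33, adjusted p = 0.158). ATP1 beside BNA4 gave -0.01 ± 0.18 in H3del. Beside TNA1, RAD2 gave 0.41 ± 0.20 in H3del and 0.18 ± 0.23 in H4del, and APL6 gave -0.02 ± 0.16 and -0.13 ± 0.19.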

How the data were processed

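The value table holds MAS5 signal intensity on a linear scale, which the authors deposited for 14 arrays (MAS5 per the submitters' processing notes, without a version). With 2% trimmed, mean signal was 1500.83 to 1501.18 on every array, so no rescaling was done. Of 9335 probe sets 60 were controls. Genes were named from the platform annotation, with symbols updated through RefSeq (R64): 6504 probe sets had 1 gene, 328 several and 2443 none.

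An offset of 16.9, the signal at the 10th percentile, was added before log2, and probe sets at or under the 30th percentile of mean log2 signal were left out. limma 3.58.1 (lmFit, eBayes with a trend, R 4.3.3) was fitted on 6492 with 1 mean per group, 10 residual degrees of freedom and Benjamini-Hochberg adjustment, and its code was tested on simulated data. Fold changes refer to signal plus offset. A gene is represented by its brightest probe set. Python 3.11.15, pandas 2.3.3 and matplotlib 3.10.9 made tables and plots.

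Deviations from group means correlated by 0.263 to 0.638 in the 4 same-number pairs of H3 strains. The range was 0.278 to 0.52 in 3 of H4 strains and 0.268 to 0.501 in 3 of wild types. Same-day pairs of different groups gave 0.263 to 0.638, so number and day are not separate. Other-day pairs gave -0.466 to 0.502. H3del replicate 1 gave 0.541 with H3WT replicate 2, also of its day, against 0.356 with H3WT replicate 1. The values thus do not show that the number pairs arrays. The number, shared in the labels, was fitted as an alternative block. Blocks were set within H3 or H4 strains (5 residual degrees of freedom), but over all 4 groups for the wild types (7). Other alternatives were offset, filter, scaling, prior, groups fitted, day and leaving out arrays. Genes named are the 7, the 7 of the deacetylase list, at most the 4 of smallest adjusted p in each deletion for the other lists, and the 3 nearest profiles of each called gene. CDA1, CDA2, SSP2, TRP1, HST4 under the block and the neighbours given by name were chosen after their values were seen. The promoter motif search that had been planned was not done, as no sequence was used here. Members and lists were chosen with earlier results of these data known.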

Additional observations from a re-analysis of the deposited data

Results flagged for a closer look

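The effects of the 2 tail deletions differed for 3 of the 7 genes by the test of the difference itself in limma, where 3.68% of all tested probe sets did. Which tail was lost cannot be told apart here from the marker, the medium, most of the days and the missing mitochondrial transcripts of H4del. BNA1 had -1.52 ± 0.29 on the log2 scale (adjusted p = 0.00979). Its H3del and H3WT arrays overlapped (highest H3del 4318.1, lowest H3WT 4120.8). Its H4del and H4WT arrays did not, which was so for 33.3% of all tested probe sets. BNA4 had 1.40 ± 0.27 (adjusted p = 0.0119) and TNA1 -1.04 ± 0.27 (adjusted p = 0.0454). The call of TNA1 was lost without any of 11 of the 14 arrays (adjusted p up to 0.105 in limma), under quantile normalization (0.0986) and without a trend (0.055). In the H3 strains, the only groups of 4 arrays, no array of the 7 genes stood far from the others by Dixon's criterion.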

How the results depend on the processing

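BNA4 in H3del and TNA1 in H4del were called under all 11 other settings and without any 1 array, with log2 differences of 1.61 to 1.76 and 1.42 to 1.77. The differences of effects of BNA1 and BNA4 were called under all 10 other settings. The number of the 7 genes called in H3del was 4, and 2 with the filter at the 50th percentile, 2 without a trend, 2 with only the groups compared, and 1 to 4 without single arrays. In H4del it was 4, and 2 under quantile normalization, 2 with only the groups compared, and 2 to 3 without single arrays. For the difference of effects it was 3, and 2 under quantile normalization, 2 without a trend, and 2 to 3 without single arrays. It was 4 with the day as a fixed or random block and 4 with the replicate block. Between the wild types it was 0, and 1 with the replicate block. Probe sets called in H3del numbered 498, and 250 with the filter at the 50th percentile, 1338 and 1304 with the day as a fixed or random block, 1047 with the replicate block and 330 to 480 without single arrays. In H4del they numbered 1134, and 610 with only the groups compared, 1933 and 2124 with the day blocks, 2130 with the replicate block and 580 to 1492 without single arrays. For the difference they numbered 239, and 368 under quantile normalization, 1078 and 1184 with the day blocks, 1056 with the replicate block and 117 to 466 without single arrays. Between the wild types they numbered 221, and 135 with the filter at the 50th percentile, 108 with only the groups compared, 335 with the day as a random block, 511 with the replicate block and 137 to 304 without single arrays. Higher calls were 65.3% of those for the difference, and 51.9% and 55.0% with quantile or median scaling, and 36.2% between the wild types, and 28.9% and 24.5% with those scalings. No called value of the 7 genes changed sign. Values that had not passed did so for BNA6 in H4del (0.13, and -0.11 and -0.00 with the day as a fixed or random block, and -0.05 to 0.32 without single arrays), for BNA2 in H4del (0.12, and -0.06 to 0.46 without single arrays), for BNA5 in H3del (0.07, and -0.09 to 0.15), for BNA2 between the wild types (-0.16, and 0.21 with the day as a fixed block) and for NPT1 between the wild types (0.09, and -0.02 to 0.18 without single arrays). The replicate block changed the call of BNA5 for the difference and of BNA4 between the wild types and no other call of the 7 genes. The day as a fixed or random block changed the call of BNA5 for the difference and no other call of the 7 genes. The cause of these changes was not tested. Leaving out an array leaves 2 in an H4 group, with the spread taken from all groups.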
